A study of Mus musculus with 3 samples.

Results

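The proliferins are hormones of the prolactin family that are encoded in mouse by the Prl2c genes. All genes whose symbol begins with Prl2c were taken, which gave Prl2c2 (gene ID 18811), Prl2c3 (gene ID 18812) and Prl2c5 (gene ID 107849), 3 of the 15287 genes listed in the deposited expression table. The family was chosen by its measured expression, which was much higher after titanium (Ti) particles than in the untreated library (CTL), so the difference of the Ti library from CTL is given below as a description only. The study asked how selenomethionine (Se-Met), an organic form of selenium, acts on cells exposed to Ti wear particles. RNA-seq was performed on wild-type MC3T3-E1 cells, a mouse preosteoblast line derived from calvaria, with 3 conditions and 1 library of each. CTL cells had no special treatment, Ti cells received Ti particles at 10 μg/cm2 for 24 h, and Ti+Se-Met cells received this dose of particles together with 5 μM Se-Met, again for 24 h. The labels give no culture time for CTL. Since there was 1 library of each, the differences have no replicate check, and neither p-values nor standard deviations could be given.

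Proliferins are best known as secreted hormones of the trophoblast giant cells of the mouse placenta, where they act on the growth of maternal blood vessels. Prl2c2 was also isolated from growing mouse fibroblasts as a transcript induced by serum and growth factors, and the protein was therefore also named mitogen-regulated protein. It binds the cation-independent mannose 6-phosphate receptor, encoded by Igf2r. The genes lie near each other on mouse chromosome 13.

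In the RefSeq-matched transcripts of GENCODE M21 on build GRCm38, Prl2c2 spans chr13:12996125-13005383 and Prl2c3 chr13:12790816-12800079, both on the minus strand, and Prl2c5 spans chr13:13182715-13191923 on the plus strand. Each gene has 5 exons, with transcripts of 842, 857 and 844 bases and coding sequences of 675, 675 and 669 bases for Prl2c2, Prl2c3 and Prl2c5. These positions belong to the reference and not to the deposited values. Coding bases 31 to 330 of the 3 genes are shown here, because the expression of each gene can be measured only where its sequence differs from the others. They run 5′ to 3′ and are counted from the A of the start codon, and capitals mark the 13 bases that are not the same in all 3 genes.
Prl2c2: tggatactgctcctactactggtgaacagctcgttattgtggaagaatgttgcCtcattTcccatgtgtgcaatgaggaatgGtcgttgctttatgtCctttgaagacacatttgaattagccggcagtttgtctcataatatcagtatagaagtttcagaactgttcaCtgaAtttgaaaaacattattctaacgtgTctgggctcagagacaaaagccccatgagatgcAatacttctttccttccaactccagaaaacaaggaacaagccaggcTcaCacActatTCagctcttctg
Prl2c3: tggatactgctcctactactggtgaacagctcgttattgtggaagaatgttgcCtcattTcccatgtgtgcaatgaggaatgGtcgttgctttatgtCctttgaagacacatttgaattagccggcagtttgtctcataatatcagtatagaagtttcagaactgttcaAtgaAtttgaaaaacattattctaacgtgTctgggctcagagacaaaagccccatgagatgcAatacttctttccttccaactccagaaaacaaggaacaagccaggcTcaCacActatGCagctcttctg
Prl2c5: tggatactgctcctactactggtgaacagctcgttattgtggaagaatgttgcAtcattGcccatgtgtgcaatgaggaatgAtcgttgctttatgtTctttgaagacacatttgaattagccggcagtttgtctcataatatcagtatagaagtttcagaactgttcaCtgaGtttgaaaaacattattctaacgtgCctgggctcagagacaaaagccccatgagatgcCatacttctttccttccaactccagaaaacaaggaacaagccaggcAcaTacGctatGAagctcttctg
Over the whole coding sequence, Prl2c2 and Prl2c3 differed at 3 of 675 bases (99.6% identity). With the same count of positions and written from Prl2c2 to Prl2c3, the differences were T14C, C200A and T319G, of which the last 2 fall within the stretch shown. Prl2c5 differed from Prl2c2 at 20 of 669 aligned bases (97.0% identity) and from Prl2c3 at 21 (96.9% identity), with a further 6 bases in gaps in each case. The differences between Prl2c2 and Prl2c5 were therefore spread along the gene, whereas Prl2c2 and Prl2c3 were identical beyond base 319, as shown in the map of coding differences.

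**Figure D1:**
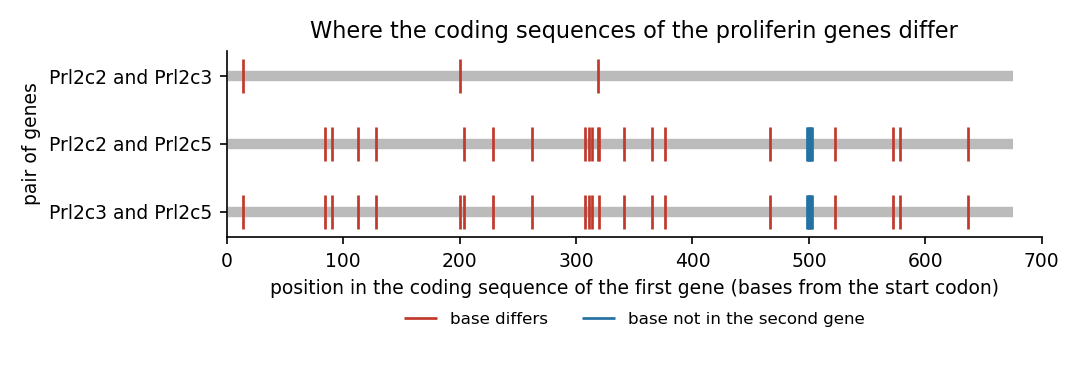
Positions at which the coding sequences of each pair of proliferin genes differ, in bases from the start codon of the first gene, with substitutions in red and bases missing from the second gene in blue. Prl2c2 and Prl2c3 differ at 3 positions, the last at base 319, and Prl2c5 differs from them at 20 and 21 positions and by 6 bases in gaps.

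How far such copies can be told apart depends on the length of the reads, which the sources used here do not give. Of all stretches of 50 bases in the Prl2c2 transcript, 80.1% (635 of 793) were also present in the Prl2c3 transcript. For stretches of 100 bases the share was 63.5% (472 of 743), and for stretches of 150 bases it was 50.9% (353 of 693). The stretches that Prl2c2 shared with Prl2c5 were fewer, at 18.5% for 50 bases, 2.83% for 100 bases and 0% for 150 bases. A further 2 annotated genes, Gm7040 and Prl2c1, shared 50-base stretches with the 3 transcripts and were not analysed here. How reads that match several copies were assigned is not given in the sources used here, so the split of reads between Prl2c2 and Prl2c3 is uncertain. The sum of the family does not depend on how reads were split among its listed copies. It would depend on whether such reads were dropped, counted more than once or given to other genes.

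Expression was deposited as FPKM, a fragment count divided by the length of the transcript and by the mapped fragments of its library, so that levels of different genes in one library can be set side by side. For Prl2c2 the level was 15.48 FPKM in CTL, 351.05 with Ti and 340.68 with Ti and Se-Met. Prl2c3 was at 0.97, 16.03 and 16.08 FPKM in the same order. Each gene was therefore far lower in CTL than in both libraries that received Ti particles, and the value with Se-Met was close to that without it. Prl2c5 was listed at 0 FPKM in CTL, and was at 0.39 in Ti and 0.26 in Ti+Se-Met. Prl2c5 stayed below 1 FPKM in every library and did not pass the filter of at least 1 FPKM in at least 1 library, which 2 of the 3 genes and 11137 of all 15287 genes passed. Prl2c3 passed it only through the Ti-treated libraries. The summed FPKM of the 3 genes was 16.45, 367.47 and 357.02 in this order.

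**Figure D2:**
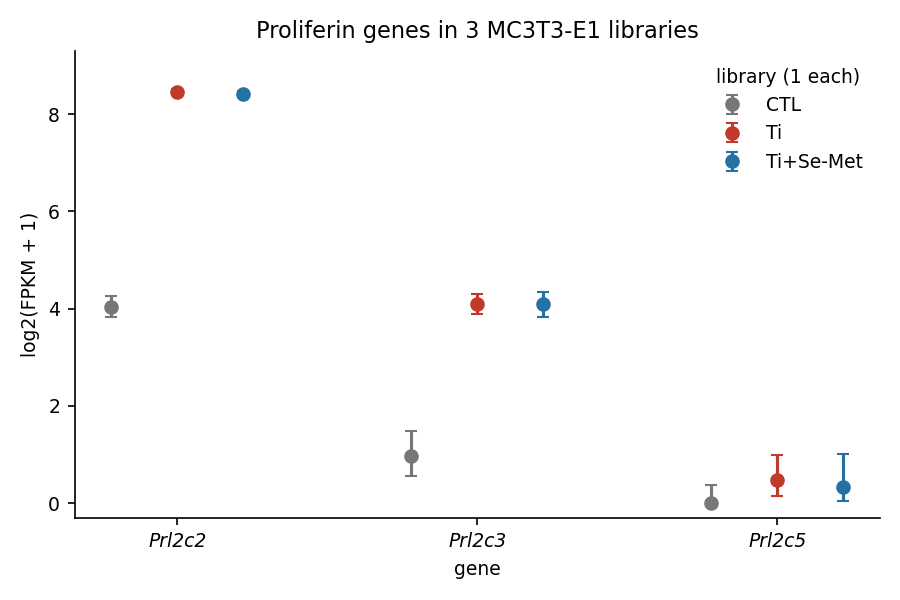
Level of each proliferin gene, as log2(FPKM + 1), in the CTL, Ti and Ti+Se-Met libraries (1 library each), with exact 95% Poisson intervals on the estimated fragments (for Prl2c5 in CTL, the level of 3 fragments), which hold counting error only. Prl2c2 and Prl2c3 lie far above CTL in both Ti-treated libraries, whose intervals overlap, and Prl2c5 lies near 0 in all 3 libraries.

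The counts behind these values were estimated, since the deposited table holds no counts. A single fragment raises the FPKM of a short gene by a fixed step, and the steps seen among low values of genes with 1 transcript placed the depth near 14350000 (CTL), 14800000 (Ti) and 10125000 (Ti+Se-Met) fragments. The estimate is approximate, because only 59.2%, 52.3% and 47.3% of the low values used lay on a step. A single depth fixed beforehand would give 18% by chance. The depth kept was the one with the highest share among many tried. Chance alone could therefore exceed 18%, and by how much was not tested. Settings that fitted nearly as well ranged from 13500000 to 14900000, from 13800000 to 15900000 and from 9600000 to 11550000. On this scale Prl2c2 rested on about 154, 3595 and 2387 fragments. The exact 95% Poisson interval of its level was 13.2 to 18.2 FPKM in CTL, 340 to 363 in Ti and 327 to 355 in Ti+Se-Met, so the interval in CTL lay far from the other 2, which overlapped. Prl2c3 rested on about 10, 168 and 115 fragments, with intervals of 0.473 to 1.81, 13.7 to 18.7 and 13.3 to 19.3 FPKM. The level of Prl2c3 in CTL was thus the least certain of those that enter a ratio. Prl2c5 rested on about 0, 4 and 2 fragments. A count of 0 in CTL allows a Prl2c5 level of up to 0.301 FPKM taken as 3 fragments. By the exact 95% Poisson interval it allows up to 0.370 FPKM, near the Prl2c5 value of 0.39 in Ti. No fold is given for Prl2c5, and a difference between its libraries was not detectable at this depth. The intervals here and below include no error other than that of counting, so they set one library against another and not one treatment against another.

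The split of reads between Prl2c2 and Prl2c3 is uncertain, and the intervals of the shares treat each fragment as correctly assigned. As deposited, Prl2c2 made up nearly all of the family in every library. Its share of the summed Prl2c FPKM was 94.1% in CTL (exact 95% binomial interval 89.1 to 97.0), 95.5% in Ti (94.7 to 96.1) and 95.4% in Ti+Se-Met (94.4 to 96.1). The share of Prl2c3 was 5.90% in CTL (2.96 to 10.9), 4.36% in Ti (3.82 to 5.17) and 4.50% in Ti+Se-Met (3.81 to 5.49). The intervals of each gene overlapped across the 3 libraries, so a change in the composition of the family was not detectable at this depth. The share of Prl2c5 was 0% in CTL, which allows up to 2.22% by the exact interval (1.83% taken as 3 of 164 fragments). It was 0.106% in Ti and 0.0728% in Ti+Se-Met. In each library the order of the levels was Prl2c2, Prl2c3 and Prl2c5, and in Ti and Ti+Se-Met the Poisson intervals of neighbours in this order did not overlap. In CTL the interval of Prl2c3 began at 0.473 FPKM, above the 0.370 FPKM at which the exact interval of Prl2c5 ended.

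The values that chose the genes were those of the Ti library over CTL. Prl2c2 was 22.7-fold higher in Ti (exact conditional binomial 95% interval 19.3 to 26.8), and Prl2c3 was 16.5-fold higher (8.64 to 34.6). The interval of Prl2c3 included the fold of Prl2c2, so a difference between the folds of the 2 genes was not detectable. The summed FPKM was 22.3-fold higher (19.0 to 26.2). On the scale used for counts over all genes, the log2 ratio of FPKM + 1, the differences were 4.42 for Prl2c2, 3.11 for Prl2c3 and 4.40 for the sum. Adding 1 shrinks this ratio most where levels are low, and the log2 of the plain fold was 4.50 for Prl2c2 and 4.05 for Prl2c3. By the log2 ratio of FPKM + 1, Prl2c2 ranked 1 and Prl2c3 ranked 6 of the 11137 genes that passed the filter, both past 2-fold, as were 3.63% of those genes in this direction. Among the 8728 genes that averaged at least 5 FPKM and were above 0 in CTL, the plain fold was largest for Prl2c2, followed by Prl2c3 and by Il1rl1 (12.6-fold), the receptor of interleukin-33.

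In CTL, Prl2c2 ranked 5065 of the 15287 listed genes, with 66.8% of genes at a lower level, and in Ti it ranked 193, with 98.7% of genes lower. In Ti+Se-Met its rank was 201. Prl2c3 moved from rank 10957 in CTL to 5178 in Ti and 4976 in Ti+Se-Met, that is from above 28.3% of genes to above 66.1% and 67.4%. In the 2 Ti-treated libraries Prl2c3 therefore stood about where Prl2c2 had stood in CTL. In a bulk library, a rise in every cell and a larger number of expressing cells cannot be told apart.

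**Figure D3:**
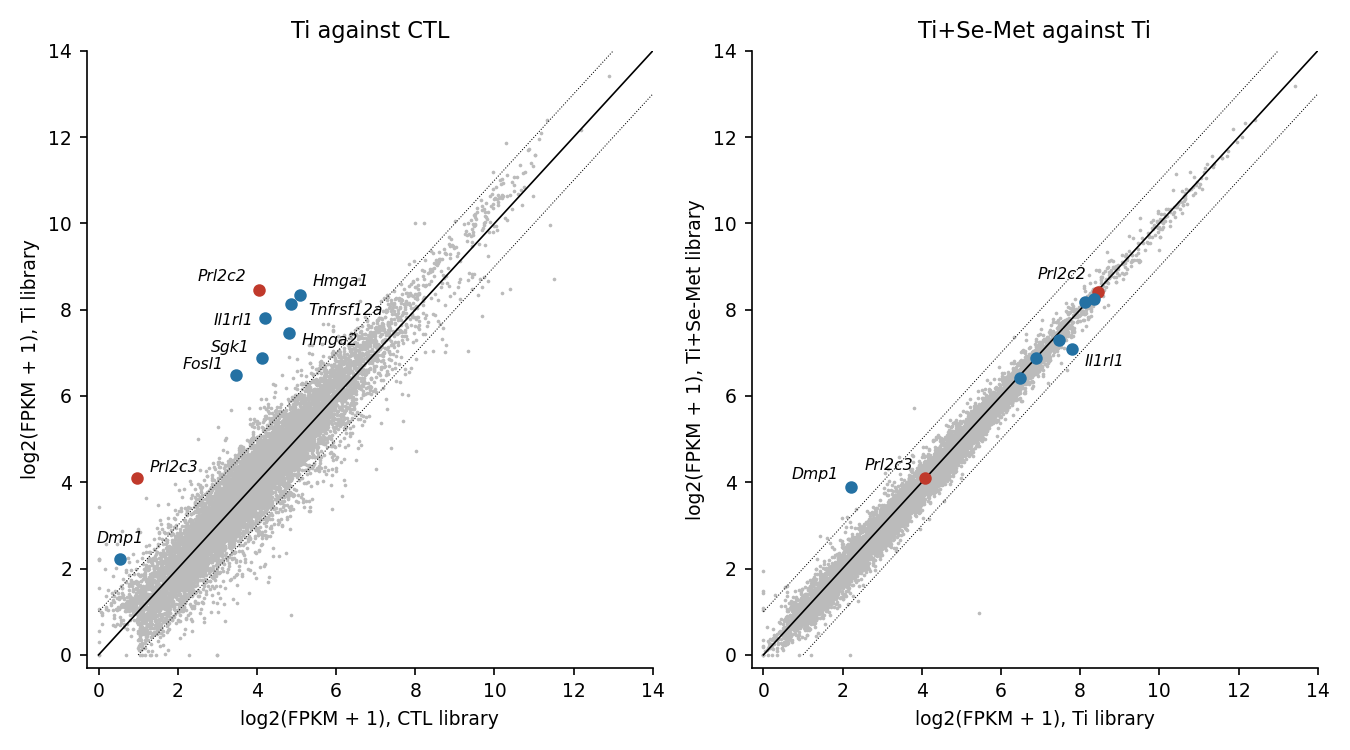
Level of every gene that passed the filter (11137 genes, grey), as log2(FPKM + 1), in Ti against CTL (left) and in Ti+Se-Met against Ti (right), with equal levels as a solid line and 2-fold differences as dotted lines. Prl2c2 and Prl2c3 (red) lie far above the line on the left, with the 7 other genes of the most similar profile (blue), and lie on the line on the right.

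The Ti+Se-Met library also received Ti particles and shares CTL with the comparison above, so its difference from CTL is not independent of the choice of the genes and is likewise a description. Prl2c2 was 22.0-fold higher in Ti+Se-Met than in CTL (18.7 to 26.0), and Prl2c3 was 16.6-fold higher (8.55 to 34.9). The log2 ratios were 4.37 and 3.12, again at rank 1 and rank 6 of the 11137 genes, of which 2.64% were at least 2-fold higher in this comparison. Between the 2 Ti-treated libraries the proliferins were nearly level. Prl2c2 in Ti+Se-Met was 0.970 times its level in Ti (0.921 to 1.02), with a log2 ratio of -0.04, and Prl2c3 was 1.00 times its level (0.782 to 1.28). Both intervals included equal levels, and that of Prl2c2 placed any difference with Se-Met between a fall to 0.921 times and a rise to 1.02 times the Ti level as far as counting error goes. For the sum of the family the fold was 0.972 (0.923 to 1.02). Only 0.162% of all genes were 2-fold or more higher with Se-Met than with Ti alone and 0.0629% were lower to that extent, and neither Prl2c2 nor Prl2c3 was among them.

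The deposited values are scaled within each library and their sum differed, at 448285 FPKM (CTL), 526017 (Ti) and 514568 (Ti+Se-Met). With the libraries rescaled to the same sum (TPM), the median over all genes for Ti against CTL moved from 0.08 to -0.14, and the genes past 2-fold became 233 higher and 864 lower in place of 404 and 405. With upper-quartile scaling they became 266 higher and 492 lower. In Ti+Se-Met against CTL, 294 higher and 370 lower became 224 and 819 as TPM. The log2 ratio of Prl2c2 in Ti against CTL less this median was 4.34 as deposited and 4.37 as TPM, and that of Prl2c3 was 3.03 and 3.45. In Ti+Se-Met against Ti, the log2 ratio of Prl2c2 lay between -0.04 as deposited and 0.02 with libraries scaled by the median of gene-wise ratios, so that its sign turned with the scaling, and that of Prl2c3 lay between 0.00 and 0.07.

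The cells were checked against marker genes, since proliferin is best known from trophoblast. Of 12 trophoblast markers 3 were listed, namely Ascl2, Krt7 and Krt8, and their summed level was 0.1, 0 and 0.06 FPKM in the order CTL, Ti and Ti+Se-Met, while the placental hormones Prl3d1 and Prl3b1 were among the 9 that are not analysed here. Since the check rests on these 3 genes, and Krt7 and Krt8 are keratins of many epithelia, the part of other cells in the level of the proliferins was not tested. All 10 osteoblast markers were listed, with a summed level of 8866, 5959 and 7376 FPKM that hid opposite differences. Of the 7 that passed the filter, 4 lay at least 2-fold below CTL with Ti and 1 above, where 3.64% of all genes were lower and 3.63% higher, and the median log2 ratio was -1.06. The matrix genes Postn (2904.07, 419.52 and 446.61 FPKM), Col1a2 (2688.49, 998.91 and 1256.6 FPKM) and Col1a1 (1333.19, 354.2 and 481.63 FPKM) were lower, as was Alpl, the gene of alkaline phosphatase (1.51, 0.2 and 0.2 FPKM), and Spp1, the gene of osteopontin (1261.19, 3705.78 and 4659.49 FPKM), was higher. Alpl passed the filter only through CTL, so it could not count as higher. Runx2 (26.77, 17.14 and 22.97 FPKM) and Sparc (649.22, 461.86 and 507.94 FPKM) were within 2-fold of CTL. Sp7 (0.63, 0.37 and 0.54 FPKM) and the late markers Bglap (0.46, 0.8 and 0.31 FPKM) and Ibsp (0, 0.04 and 0 FPKM) were below 1 FPKM in every library. The markers of endothelial cells (3 of 5 listed, summed FPKM 0.23, 0.49 and 0.49) and muscle (3 of 4 listed, 1.16, 0.34 and 0.47) were near 0. Of the endothelial markers, Vwf (0.08, 0.36 and 0.25 FPKM) was 4.5-fold higher in Ti (2.22 to 9.91). The intervals of Pecam1 and Tek included equal levels. The macrophage markers (3 of 7 listed) summed to 26.8, 15.2 and 12.94 FPKM, nearly all of it Lyz2 (26.72, 14.76 and 12.42 FPKM). Cd68 (0.06, 0.37 and 0.42 FPKM) and Csf1r (0.02, 0.07 and 0.1 FPKM) were near 0, with higher values in the Ti-treated libraries that rested on few fragments. Of the keratinocyte markers 2 of 4 were listed, Krt14 (5.59, 2.34 and 4.69 FPKM) and Trp63 (19.81, 8.53 and 9.9 FPKM), of which Trp63 was past 2-fold lower in Ti. Of the prolactin family, 5 genes were listed, and apart from the proliferins these were the pituitary hormone Prl (0.1, 0 and 0 FPKM) and the placental Prl7a1 (0, 0.08 and 0 FPKM).

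The deposited table assigns functional terms to each gene, and these place the proliferins among other secreted factors. These terms were chosen after their values were seen. Of 44 genes annotated with hormone activity, Prl2c2 ranked 4 in CTL and 1 in both Ti and Ti+Se-Met. It held 4.27%, 61.6% and 57.8% of the summed FPKM of these genes in CTL, Ti and Ti+Se-Met, respectively. Prl2c3 moved from rank 16 to rank 6 in both. Of 98 genes annotated with growth factor activity, a term that Prl2c5 did not carry, Prl2c2 ranked 26 in CTL and 1 in both Ti-treated libraries, and Prl2c3 ranked 59, 27 and 29. The growth factor genes with the highest level in CTL were Ccn3 (1164.18 FPKM), Ogn (643.89 FPKM) and Ptn (428.56 FPKM), which code for secreted or matrix-bound factors of connective tissue. In Ti, Prl2c2 at 351.05 FPKM stood just above Ccn3 at 335.5 and Ccn5 at 295.09 FPKM, and in Ti+Se-Met at 340.68 FPKM it stood above Ccn3 at 306.34 and Hdgf at 251.9 FPKM.

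Genes with the most similar profile were sought by the distance between log2(FPKM + 1) less its value in CTL, over the Ti and Ti+Se-Met libraries, among the same 8728 genes. This distance uses the values that chose the genes. Prl2c2 ranked 1 in both comparisons with CTL, so nearness to it favours other genes with large differences by construction. The 8 genes nearest to Prl2c2 were Tnfrsf12a (distance 1.57), Hmga1 (1.69), Il1rl1 (1.72), Prl2c3 (1.81), Fosl1 (2.02), Sgk1 (2.34), Hmga2 (2.59) and Dmp1 (2.92). On the scale of FPKM + 1 none reached the log2 ratios of Prl2c2, although the plain fold of Dmp1 in Ti+Se-Met over CTL, 30.8 (18.8 to 53.1), was above that of Prl2c2, 22.0 (18.7 to 26.0), and the intervals overlapped. Tnfrsf12a, the receptor of the cytokine TWEAK, had 28.15, 278.01 and 289.19 FPKM in the order CTL, Ti and Ti+Se-Met, which is kept below. Hmga1, which codes for an architectural chromatin protein, was at 33.11, 324.18 and 301.9 FPKM. Both stayed high with Se-Met, as Prl2c2 did, although Hmga1 in Ti+Se-Met was at 0.931 times its Ti level (0.898 to 0.966). Fosl1, a Fos-like subunit of the transcription factor AP-1, was at 10.18, 88.45 and 84.3 FPKM, and Sgk1, a kinase gene induced by serum and glucocorticoids, was at 16.64, 117 and 116.98 FPKM. Hmga2, a relative of Hmga1, was at 27.05, 175.95 and 155.38 FPKM. Its level in Ti+Se-Met was 0.883 times that in Ti (0.855 to 0.913). The libraries with and without Se-Met stood furthest apart for Il1rl1 and Dmp1, as the plot of the most similar profiles shows. Il1rl1 was at 17.56, 221.62 and 134.79 FPKM, and its level in Ti+Se-Met was 0.608 times that in Ti (0.591 to 0.625). Dmp1, which codes for a matrix protein of late osteoblasts and osteocytes, was at 0.45, 3.64 and 13.85 FPKM, 3.80 times its Ti level in Ti+Se-Met (3.12 to 4.65). Neither interval reached that of Prl2c2 for the same pair of libraries. The next gene in the order, Junb, stood at a distance of 2.93, so Dmp1 was among the 8 by a narrow margin.

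**Figure D4:**
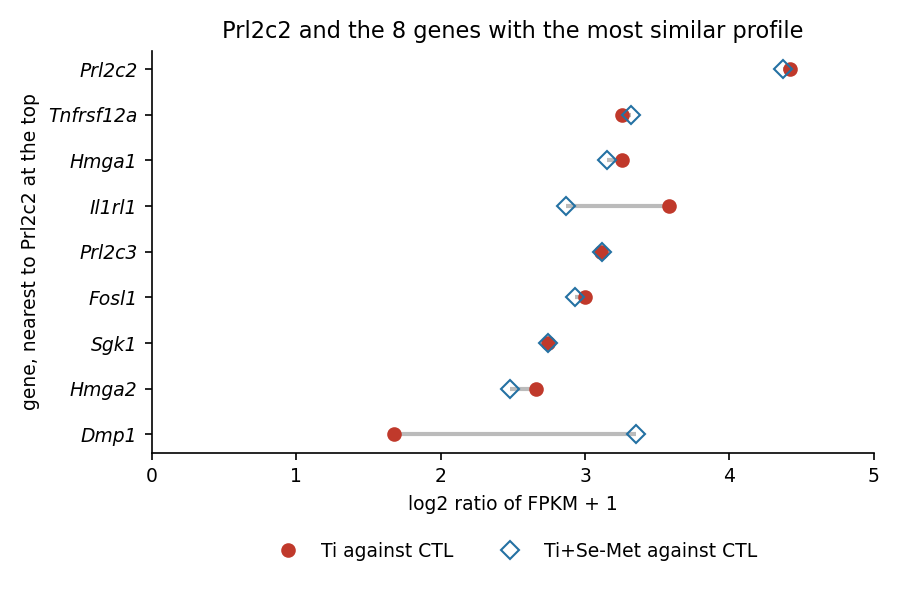
Log2 ratio of FPKM + 1 in Ti against CTL (red circles) and in Ti+Se-Met against CTL (blue diamonds), which share the CTL library, for Prl2c2 and the 8 genes nearest to it, with 1 library per condition. The 2 marks nearly coincide for Prl2c2, Prl2c3 and Sgk1 and lie apart for Il1rl1 and Dmp1.

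The promoters of the genes are shown because proliferin is known as an AP-1 responsive gene and a subunit of AP-1, Fosl1, was among the nearest profiles. They were taken from the RefSeq promoter table of build GRCm38.p6, from 250 bases before to 50 bases after the start, which holds 2 of the 3 genes, and Prl2c2 has no entry. Each runs 5′ to 3′ on the strand of its gene, at chr13:12800030-12800329 on the minus strand for Prl2c3 and at chr13:13182466-13182765 on the plus strand for Prl2c5, and capitals mark matches to the motifs searched.
Prl2c3: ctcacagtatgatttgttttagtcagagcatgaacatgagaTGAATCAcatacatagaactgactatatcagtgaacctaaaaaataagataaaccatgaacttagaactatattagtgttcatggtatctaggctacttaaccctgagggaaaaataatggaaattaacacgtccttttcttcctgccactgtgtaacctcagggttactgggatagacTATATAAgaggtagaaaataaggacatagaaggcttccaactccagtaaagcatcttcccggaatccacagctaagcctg
Prl2c5: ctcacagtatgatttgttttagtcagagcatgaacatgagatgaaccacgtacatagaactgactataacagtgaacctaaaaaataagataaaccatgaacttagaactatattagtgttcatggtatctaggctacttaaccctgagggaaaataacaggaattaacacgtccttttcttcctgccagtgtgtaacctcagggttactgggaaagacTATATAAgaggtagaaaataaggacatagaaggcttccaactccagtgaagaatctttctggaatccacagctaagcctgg
The motifs were searched on both strands as TGANTCA for AP-1, TGACGTCA for the cAMP response element and TATATAA for the TATA box. Prl2c3 held 1 AP-1 match, TGAATCA at bases 42 to 48, 209 bases before the start, and 7.81% of all 32851 promoters of the same length held such a match. These letters were not found in the window of Prl2c5, where the difference T46C, counted from 1 at the 5′ end of the window and written from Prl2c3 to Prl2c5, falls within that stretch. Both promoters held a TATA match, 30 bases before the start in Prl2c3 and 31 in Prl2c5, against 3.24% of all promoters. The matches did not overlap each other. Neither promoter held the letters of the cAMP response element (1.79% of all promoters). Over 299 aligned bases the promoters of Prl2c3 and Prl2c5 differed at 12 (96.0% identity), with a further 2 bases in gaps. Among the 8 genes nearest to Prl2c2, 7 had 15 promoters in the table, and 1 of these promoters, that of Prl2c3, held an AP-1 match. A match describes letters in a window and not a bound site.

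Gene groups that are known to act upstream of proliferin, or through which it acts, were described by their counts beside those of all genes. Of the 12 listed AP-1 subunits 11 passed the filter, and in Ti against CTL 4 of them were at least 2-fold higher (5 as TPM) and 0 lower, where 3.63% of all genes were higher and 3.64% lower. Their median log2 ratio was 0.86, and that of all genes was 0.08. Beside Fosl1, these were Junb (9.12, 50.44 and 49.13 FPKM), Maff (1.83, 10.05 and 9.13 FPKM) and Fos (0.43, 3.58 and 3.07 FPKM). Jun, the usual partner of the Fos proteins, was at 32.94, 62.2 and 62.46 FPKM and stayed below 2-fold under every scaling. Atf3 (0.38, 1.51 and 0.98 FPKM) was the subunit that passed 2-fold only as TPM, where 233 of all 11137 genes were higher. Its plain fold in Ti over CTL was 3.97 (1.96 to 8.90). Fos and Atf3 were below 1 FPKM in CTL. These 2 subunits passed the filter only through the Ti-treated libraries, so they could not count as lower. Fosb (2.2, 3.49 and 3.09 FPKM) and Jund (21.37, 27.32 and 21.32 FPKM) showed smaller differences. Fosl2 (42.21, 42.07 and 48.79 FPKM), Atf2 (20.39, 17.07 and 14.49 FPKM) and Jdp2 (32.09, 34.62 and 30.47 FPKM) stayed within 2-fold as well, with Atf2 at 0.711 times its CTL level in Ti+Se-Met (0.643 to 0.785), and the sign of Jdp2 in Ti against CTL turned with the scaling. Batf3 did not pass the filter. In Ti+Se-Met against CTL, which shares the CTL library, 4 AP-1 subunits were higher and 0 lower, where 2.64% of all genes were higher and 3.32% lower. In Ti+Se-Met against Ti 0 of the 11 were past 2-fold, which says little where 0.162% of all genes were higher and 0.0629% lower.

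Of 22 listed genes that growth factors and the ERK kinases induce, 21 passed the filter. In Ti against CTL 10 were at least 2-fold higher and 0 lower, where 3.63% of all genes were higher and 3.64% lower. As TPM 9 were higher, and with upper-quartile scaling 8, beside 233 and 266 of all 11137 genes. The median of their log2 ratios as deposited was 0.88. The largest of these ratios were those of Etv4 (0.14, 4.93 and 4.96 FPKM), a transcription factor of the ETS family, and Dusp4 (0.37, 4.89 and 5.07 FPKM), a phosphatase that acts on ERK. Dusp5 (2.39, 10.22 and 14.29 FPKM), Etv5 (1.93, 7.68 and 6.79 FPKM), Egr1 (6.44, 20.7 and 23.16 FPKM) and the urokinase receptor gene Plaur (5.95, 19.06 and 22.25 FPKM) were also higher. The others past 2-fold were Ier2, Myc, Dusp6 and Ereg. Etv4, Dusp4, Ereg (0.94, 2.99 and 3.71 FPKM) and Areg (0.07, 0.64 and 1.15 FPKM) were below 1 FPKM in CTL. They passed the filter only through the Ti-treated libraries, so they could not count as lower. In Ti+Se-Met against CTL 13 were higher and 0 lower, where 2.64% of all genes were higher and 3.32% lower. Between Ti+Se-Met and Ti 0 of the 21 genes stood 2-fold apart, as did few of all genes (0.162% higher and 0.0629% lower). Over 17 proliferation genes, which were set beside Prl2c2, the median of the log2 ratios was 0.78 for Ti against CTL. Of these genes 5 were at least 2-fold higher (Mcm2, Mcm3, Mcm5, Aurka and Plk1) and 0 lower, beside 3.63% and 3.64% of all genes. As TPM the number higher was 3, beside 233 of all 11137 genes. In Ti+Se-Met against CTL 8 were higher and 0 lower, where 2.64% of all genes were higher and 3.32% lower. The part of growth state in the level of the proliferins was not tested.

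Proliferin is also known as a gene that glucocorticoids can repress. The osteogenic medium described for the study contained dexamethasone, a glucocorticoid, and the labels do not say whether the sequenced cells were kept in it. Of 10 listed genes of the glucocorticoid receptor and its targets, 9 passed the filter, with 4 higher and 2 lower past 2-fold for Ti against CTL, where 3.63% of all genes were higher and 3.64% lower, and a median log2 ratio of 0.24. As TPM, 2 were higher and 2 lower, beside 233 and 864 of all 11137 genes. The receptor gene Nr3c1 (58.74, 27.93 and 28.33 FPKM) and its target Tsc22d3 (63.15, 19.06 and 16.56 FPKM) were lower, whereas Sgk1, Dusp1 (9.51, 21.81 and 20.08 FPKM), Errfi1 (11.79, 25.39 and 29.23 FPKM) and Cebpd (15.3, 37.56 and 30.93 FPKM) were higher. Known targets of glucocorticoids thus stood on both sides of CTL.

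On the side of the receptor, the level of Igf2r, which codes for the mannose 6-phosphate receptor that binds proliferin, was 53.7, 42.7 and 47.1 FPKM, a log2 ratio of -0.32 in Ti against CTL. Of the 6 genes of this receptor, its ligand Igf2 and the enzymes that attach mannose 6-phosphate, 0 were higher and 1 lower past 2-fold in Ti. Of all genes, 3.63% were higher and 3.64% lower. The median of the 6 log2 ratios was 0.04. The one that was lower was Igf2, the growth factor that the same receptor takes up and degrades, at 58.46, 16.86 and 17.56 FPKM. Gnptab (24.8, 25.16 and 24.88 FPKM) and Gnptg (32.27, 33.64 and 33.02 FPKM), subunits of the phosphotransferase, Nagpa (11.55, 14.77 and 14.83 FPKM), the uncovering enzyme, and M6pr (69.15, 77.87 and 74.27 FPKM), the smaller mannose 6-phosphate receptor, were within 2-fold, and the signs of Gnptab, Gnptg and M6pr in Ti against CTL turned with the scaling. While Prl2c2 was 22.7-fold higher in Ti, its receptor and the tagging enzymes thus stayed within 2-fold. Of 8 genes of the prolactin and growth hormone receptors and their signalling, 1 was higher and 3 lower, beside the same 3.63% and 3.64% of all genes. The median log2 ratio of the 8 was -0.47. Prlr, the prolactin receptor, was at 2.42, 0.52 and 0.5 FPKM, Ghr, the growth hormone receptor, at 59.59, 24.09 and 30.6 FPKM, and Socs2, a feedback inhibitor of these receptors, at 28.1, 9.95 and 17.14 FPKM, whereas Socs3, a feedback inhibitor of cytokine receptors, was at 16.84, 41.26 and 45.85 FPKM. Prlr passed the filter only through CTL, so it could not count as higher.

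Since proliferin is known as an angiogenic hormone, other angiogenic factors and inhibitors were set beside it. Of 15 angiogenic factors that passed the filter, 1 was at least 2-fold higher and 3 lower with Ti, where 3.63% of all genes were higher and 3.64% lower. The median log2 ratio was -0.25, and 4 were lower as TPM, beside 864 of all 11137 genes. The one that was higher was Vegfa, the main endothelial growth factor, at 31.22, 94.37 and 79.08 FPKM, and those that were lower were Vegfd (26.09, 11.76 and 16.85 FPKM), Ccn1 (237.78, 98.84 and 173.27 FPKM) and Ptn (428.56, 129.7 and 216.04 FPKM). Prl2c2 was thus at a lower level than Vegfa in CTL and at a higher level than Vegfa in both Ti-treated libraries. Of 10 inhibitors that passed, 0 were higher and 3 lower, with a median of -0.12, namely Thbs1 (79.98, 34.11 and 55.79 FPKM), Timp3 (350.87, 131.42 and 154.82 FPKM) and Adamts1 (72.92, 15.54 and 13.67 FPKM). The members of these lists are shown beside the proliferins in the plot of gene groups.

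**Figure D5:**
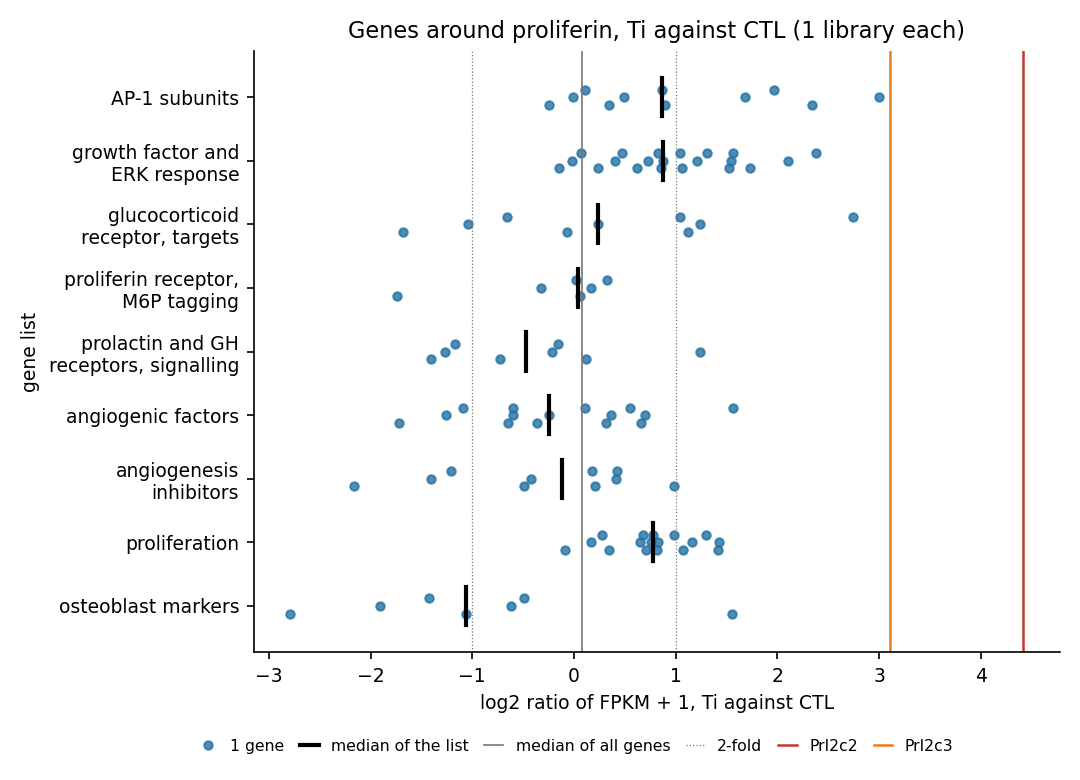
Log2 ratio of FPKM + 1 in Ti against CTL (1 library each) for each gene of the lists that passed the filter (blue points), with the median of each list as a black bar, the median of all genes (0.08) as a grey line and 2-fold differences as dotted lines. The lines for Prl2c2 (4.42) and Prl2c3 (3.11) lie to the right of every listed gene, with Fosl1 the nearest.

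Between the 3 loci and among the 6 annotated genes on each side, the reference held 22 other genes, of which 16 were pseudogenes and 10 lay between the proliferin genes. Of these 3 were listed in the deposited table, namely Edaradd (0.01, 0 and 0 FPKM), Ero1b (1.07, 1.43 and 1.25 FPKM) and Gm2423 (25.15, 22.23 and 25.65 FPKM). Only Ero1b, which codes for an oxidase of the endoplasmic reticulum, and Gm2423 passed the filter, and 0 of these 2 were past 2-fold in Ti against CTL, where 3.63% of all genes were higher and 3.64% lower.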

How the data were processed

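RNA-seq was measured in 3 libraries of MC3T3-E1 cells. The authors removed adapter and low-quality reads, aligned with HISAT2 and counted genes with HTSeq per the methods, while the submitters' processing notes list HISAT2, StringTie, SAMtools and mm9. How FPKM was made from the counts is not given in the sources used here. The deposited FPKM values are rounded to 2 decimals, and 0 columns were left unmatched.

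Log2((FPKM + 1)/(FPKM + 1)) was computed over genes with at least 1 FPKM in at least 1 library, and 2-fold differences were counted (Python 3.11.15 with pandas 2.3.3, numpy 2.4.6 and scipy 1.17.1). Since the unit is not a count, no count model was fitted. Depth was estimated from 1-fragment steps in 453 genes with 1 transcript of 350 to 1000 bases (length less 150 bases, GENCODE M21). The values then added up to 102%, 104% and 104% of the fragments in CTL, Ti and Ti+Se-Met. Depth cancels out of this sum, so it bears on the lengths used and not on the depths. Coding sequences were aligned with MAFFT 7.526. The steps were tested on simulated data.

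The genes named are the Prl2c genes, the 8 nearest profiles, all listed genes of the prolactin family, receptor, AP-1 and neighbour lists, and the members of the other lists past 2-fold in Ti against CTL. Cell type markers and the growth factor genes with the highest levels are also named. Members and lists were chosen with earlier results of these data known. The alternatives changed the pseudocount (0.1, 5), the filter (none, or a mean of 5 FPKM), the threshold (1.5-fold, 4-fold) or the scaling (TPM, upper quartile, median of ratios).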

Additional observations from a re-analysis of the deposited data

How the results depend on the processing

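No paired analysis was possible because there was 1 library of each condition, and none could be left out. For Ti against CTL, the 809 genes past 2-fold numbered 1251 and 333 under pseudocounts of 0.1 and 5, and 2989 and 57 at thresholds of 1.5-fold and 4-fold. In the same order of settings the 664 genes of Ti+Se-Met against CTL numbered 1110, 243, 2469 and 49 (1043 as TPM), and the 25 genes of Ti+Se-Met against Ti numbered 90, 4, 238 and 2 (12 where the mean was 5 FPKM or more). With a pseudocount of 5, the log2 ratio of Prl2c2 against CTL became 4.12 for Ti and 4.08 for Ti+Se-Met, that of Prl2c3 1.82 for both, and that of the sum 4.12 and 4.08, since a larger added value shrinks a ratio by construction. These were the 20 recomputed values that moved beyond their interval or by over 1.5 times. The other 94 did not count as moved, but 36 of them were bounds of fold intervals, judged only by staying on the same side of 1. The 94 also include the numbers of shared nearest profiles given next, which have no such interval. Beside the nearest profiles, between 6 and 8 of the 8 genes were shared under each of 6 alternatives, and Prl2c3 stood at place 1 with a pseudocount of 0.1 and as TPM, at place 10 with a pseudocount of 5 and at place 4 otherwise. Precision was limited most for Prl2c3 in CTL (about 10 fragments) and for Prl2c5, and the shallowest library was Ti+Se-Met.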
